A study of Homo sapiens with 60 samples.

Results

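A549, an established line from a human lung carcinoma, was kept for 24 h with a hot-water extract of Bupleuri Radix, the dried root of Bupleurum used in Korean herbal medicine. The comparison described here sets 3 libraries of the high dose (500 µg/mL) against 3 of the low dose (20 µg/mL), 6 of the 60 libraries of the series, chosen by the dose on their labels. No vehicle library is among these 6. The 3 vehicle libraries were among the 57 libraries whose joint fit set the filter, the scaling and the spread. The medium dose (100 µg/mL, 3 libraries) and the vehicle (DMSO, 3 libraries, labelled 0.1% on the samples and 2% in the series' design text, which is not settled) are given beside the members as levels. The labels do not say whether the extract cultures held DMSO, nor whether the 3 replicates of a dose came from separate cultures. P-values therefore measure only the spread between libraries, which may be technical, and that spread was estimated over all 19 groups of the fit. High against low dose of 2 other hot-water herb extracts, Cimicifugae Rhizoma and Citri Unshius Pericarpium, given at the same doses and read in the same way with 6 libraries each, served as the neighbouring comparisons.

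Messenger RNA was sequenced as 100 bp read pairs, and the deposited values are expected counts per gene. The 9 Bupleuri libraries held 21862700 to 29609912 counts, so that 1 CPM (a count scaled to library size, the level unit used below) stood for 21.9 to 29.6 counts in a library. Epithelial markers (6 of 6 passed the low-count filter, summed level 8278 to 9009 CPM at the high dose and 8741 to 10385 at the low dose) and the detoxification genes typical of this line (6 of 6, 14060 to 14592 and 14089 to 15508 CPM) were present at both doses. Markers of endothelium (0 of 6 passed, summed level 0.123 to 0.292 CPM at the high dose and 0.288 to 0.420 at the low dose) and of hepatocytes (1 of 5, 0.246 to 0.328 and 0.311 to 0.535 CPM) were near 0. Of the leukocyte markers 2 of 7 passed, CD14 and CD68, with a summed level of 8.00 to 9.05 CPM at the high dose and 7.83 to 9.05 at the low dose, while PTPRC and CD3E were at 0. Of the fibroblast markers 3 of 6 passed, with a summed level of 37.3 to 42.1 CPM at the high dose and 34.5 to 40.9 at the low dose, nearly all of it COL1A1, while DCN was at 0. Of the alveolar type 2 markers 6 of 8 failed the filter, SFTPA1 and SFTPA2 among them at 0. Their summed level was low, at 1.65 to 2.08 CPM at the high dose and 1.22 to 1.44 at the low dose, without overlap. The 2 that passed were higher at the high dose, by a median of 0.942 on the log2 scale. Neither of these 2 is among the changed genes counted below. Low replicate 1 stood apart from the other low libraries: its chi-square against them, divided by the degrees of freedom, was 13.87 and 15.72, against 5.965 between the other 2 and 5.503 to 7.136 within the high dose. Its balance of long transcripts (over 6 kb) to short ones (under 1.5 kb), on the log2 scale, was 0.7193, against 0.3519 and 0.4003 in the other low libraries and 0.4703 to 0.6507 at the high dose, so that the groups overlapped in that measure. The count of changed genes without it is given with the main count.

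Between the low and the high dose, 61 of 17268 tested genes changed at an adjusted p under 0.05 (edgeR quasi-likelihood test, percent called 0.353), 22 higher (0.127) and 39 lower (0.226). Genes that fell included ID4, ID2 and ID3, inhibitors of helix-loop-helix transcription factors that bone morphogenetic protein (BMP) signalling is known to induce, together with ATOH8, NR4A1, the imprinted RNA H19, PTGS2, PDK4 and the 3 fibrinogen chains. Genes that rose included CYP1A1, CYP1B1 and TIPARP, induced by the aryl hydrocarbon receptor, as well as GREM1 and CDH4. The changes were mostly small. The median size was 0.45 on the log2 scale, 5 genes moved by at least 1 and 16 by less than 0.3, while the median log2 fold over all tested genes was 0.00437. Of the 61 genes, 58 were protein coding. High and low libraries did not overlap in any of the 61, a separation that 12.7% of all tested genes showed, 6.89% with the high dose above and 5.79% with it below. Without low replicate 1 there were 54 calls, 49 of them among the 61. Without high replicate 1 there were 29, all among the 61, with 37 without high replicate 2 or 3 and 40 without low replicate 2 or 3. The calls kept in all 6 of these fits numbered 25, 7 higher and 18 lower, and they include each gene named above except ID3. Other settings moved the count by more than 1.5 times, to 33 without the low-count filter, 15 in the 6 libraries alone with the replicate block (11 of them among the 61), 39 in the 9 Bupleuri libraries, 112 without 1 Citri medium library, 120 with DESeq2 (60 of them among the 61) and 265 once that length balance was a covariate. The 6 libraries alone without the block gave 41 calls, of which only 31 were among the 61. In the 9 Bupleuri libraries 30 of the 39 were. Of the 40 named genes, 12 lost their call in the 6 libraries alone and 29 there with the block. Whether the replicate numbers pair these libraries is not settled.

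**Figure D1:**
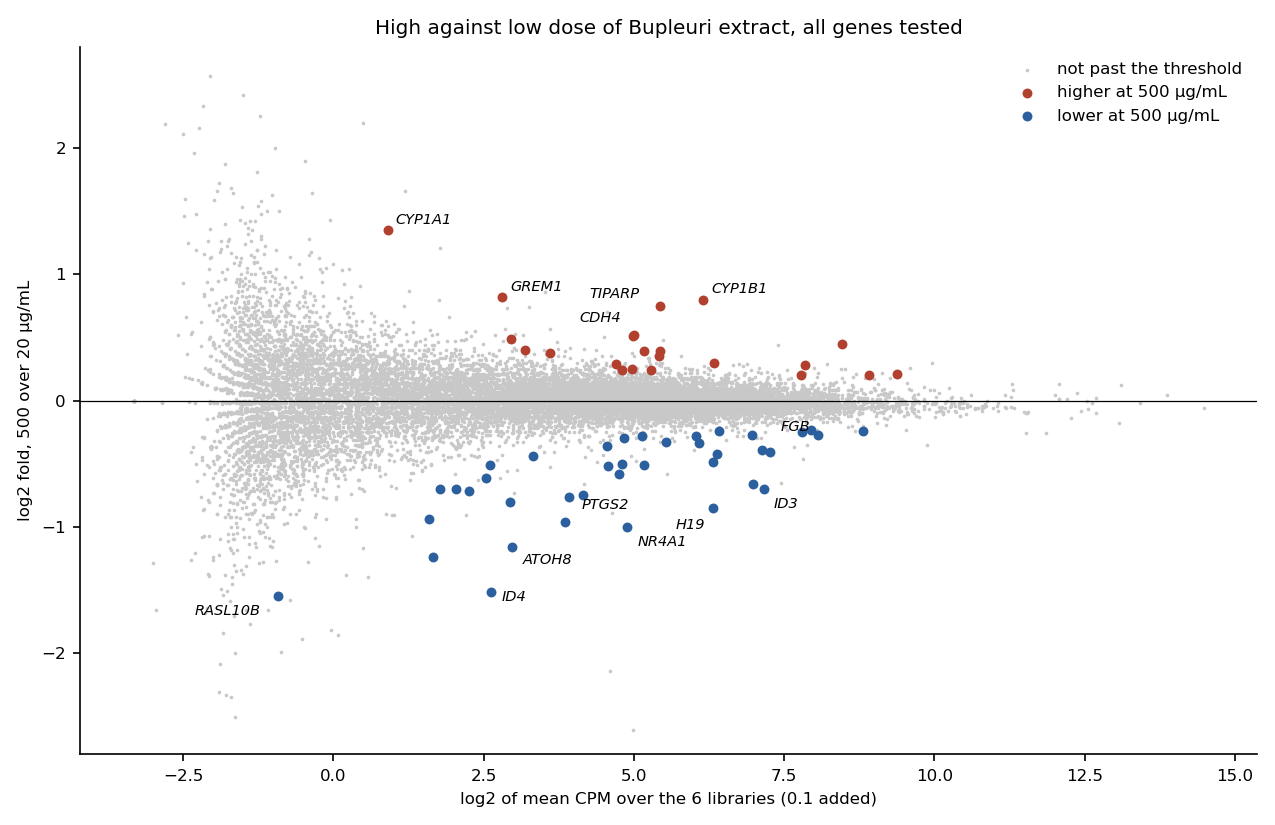
Log2 fold of the high over the low dose (vertical axis) against log2 of the mean CPM over the 6 libraries with 0.1 added (horizontal axis) for 17268 genes, of which 32 lie outside the vertical axis limit of 2.8 and none of those was called. Red points are the 22 genes called higher and blue points the 39 called lower; among genes labelled by name, RASL10B (-1.55), ID4 (-1.52) and ATOH8 (-1.16) lie lowest and CYP1A1 (1.35) highest.

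BMP ligands signal through serine kinase receptors and SMAD proteins to the nucleus, where the ID genes are among the first genes switched on. ID proteins pair with E proteins, the helix-loop-helix activators of differentiation genes, and keep them off DNA. Secreted antagonists such as GREM1 bind the ligands outside the cell.

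Of the called genes above 1 CPM, ID4 had the largest fall. It was at 8.09, 9.26 and 9.66 CPM in the low libraries and at 2.87, 3.45 and 3.10 CPM in the high libraries (log2 fold -1.52 ± 0.13 SE, adjusted p = 1.1e-10). The groups lay far apart, and the vehicle libraries (8.72, 9.19 and 8.74 CPM) sat among the low ones. ID2 read 150.2, 148 and 164 CPM at the low dose and 101, 94.9 and 96.6 CPM at the high dose (-0.66 ± 0.10, adjusted p = 0.000106), again without overlap. ID3 fell from 156, 192 and 181 CPM to 110.4, 107 and 108 CPM (-0.70 ± 0.15, adjusted p = 0.0107). The low libraries of ID3 were spread while the high ones were nearly equal, and its call was kept in 1 of the 6 fits that left out a library, at adjusted p from 0.0107 to 0.105. ID1 did not pass the threshold, with 162, 244 and 231 CPM at the low dose and 144, 129.6 and 134 CPM at the high dose (-0.65 ± 0.17, adjusted p = 0.0911). Its groups did not overlap, and low replicate 1 was the lowest of the low libraries for ID1, ID3 and ID4 alike. So 3 of 4 ID genes fell and all 4 had a log2 fold below 0, with a median of -0.68 against 0.00437 over all genes.

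ATOH8, a helix-loop-helix factor known as a BMP target, was at 9.32, 11.7 and 11.0 CPM at the low dose and 4.23, 4.75 and 5.33 CPM at the high dose (-1.16 ± 0.11, adjusted p = 2.78e-09). Vehicle libraries were at 9.94, 9.71 and 11.1 CPM, within the low range. It was the only one of 10 tested genes on the list of other direct or early BMP targets to pass the threshold. The inhibitory SMADs, which BMP signalling also induces, had log2 folds of -0.11 ± 0.11 (SMAD6) and 0.06 ± 0.06 (SMAD7), and the pseudoreceptor BAMBI of -0.29 ± 0.12, none past the threshold. Over those 10 genes, 5 were above 0 and 5 below, with a median of 0.01.

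On the side of the signal itself, GREM1 rose from 5.27, 4.73 and 5.00 CPM to 8.99, 7.63 and 9.93 CPM (0.82 ± 0.12, adjusted p = 2.85e-05). Each high library lay above each low, medium and vehicle library. GREM1 was the 1 called member of 10 tested antagonists. FST, an activin antagonist, was at -0.33 ± 0.15 and FSTL1, a related secreted protein, at 0.18 ± 0.07, neither past the threshold. None of 10 ligands and none of 12 receptors and signal transducers was called. BMP4 had a log2 fold of -0.30 ± 0.13, BMP6 of -0.26 ± 0.12, the type I receptor BMPR1A of 0.01 ± 0.07 and SMAD4, the shared partner of the pathway's SMADs, of 0.08 ± 0.06. The E proteins and their partners gave 0 calls among 9 tested genes, with a median of 0.092.

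**Figure D2:**
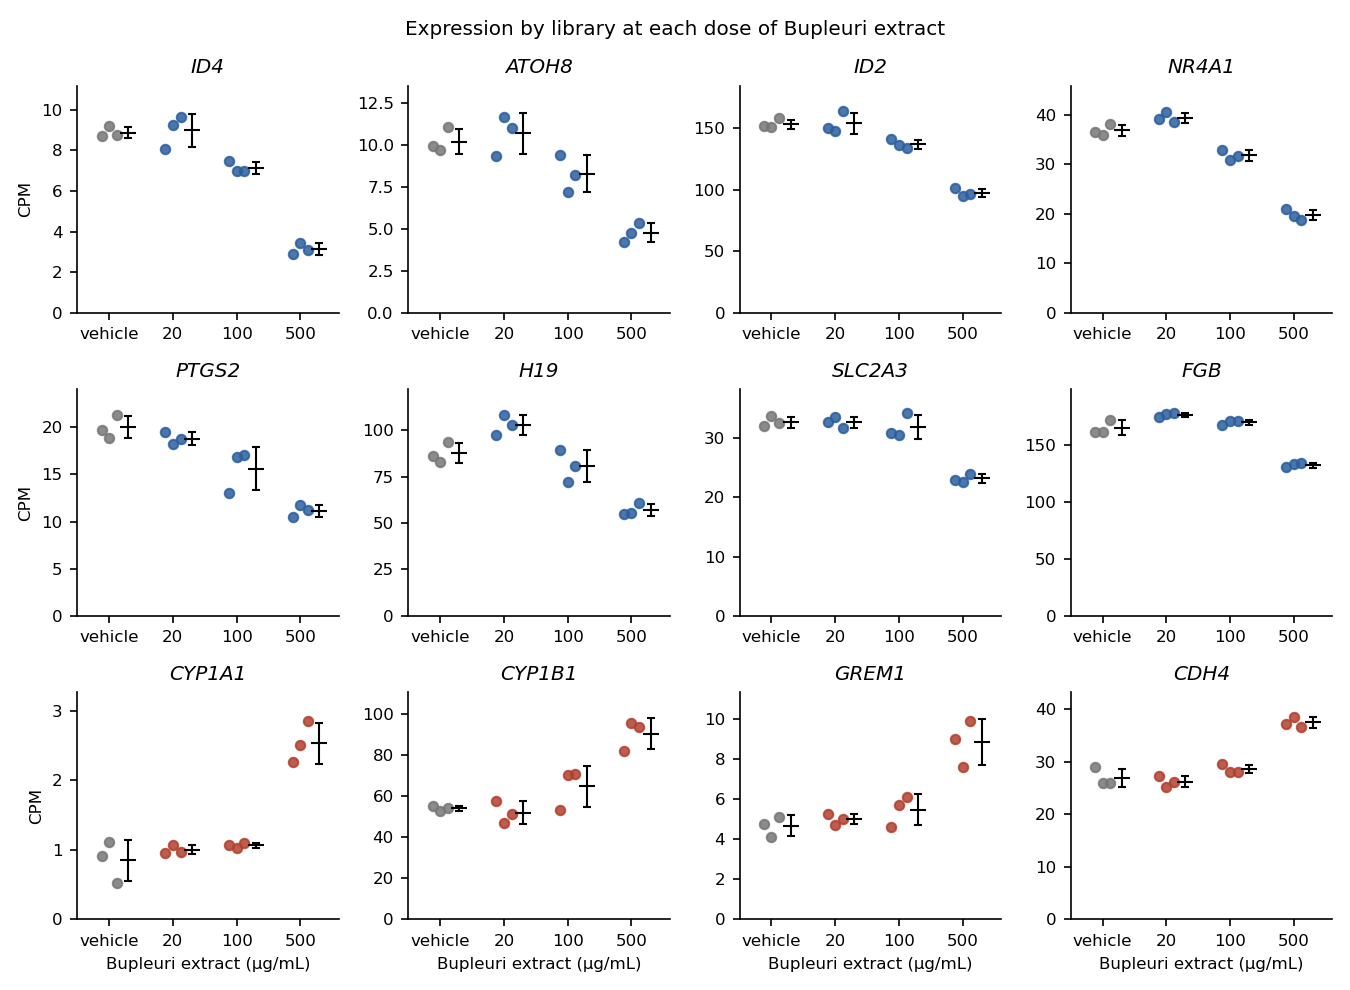
CPM of 12 called genes (vertical axes, from 0) in each library of the vehicle (grey) and of the low, medium and high dose (blue for genes that fell, red for genes that rose; horizontal axes in µg/mL). The black bars are the mean and SD of 3 libraries; in each panel the 3 libraries at 500 µg/mL stand apart from the 3 at 20 µg/mL, as for ID4 at 2.87 to 3.45 against 8.09 to 9.66 CPM.

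NR4A1, NR4A2 and NR4A3 are orphan nuclear receptors induced within minutes to hours by growth factors, calcium and cyclic AMP, which reaches them through CREB at TGACG-containing elements. NR4A1 had the smallest p of the comparison. It was at 39.2, 40.6 and 38.5 CPM at the low dose and 20.9, 19.6 and 18.8 CPM at the high dose (-1.0 ± 0.08, adjusted p = 1.69e-12), with little spread in either group. The medium libraries (32.9, 30.9 and 31.6 CPM) lay between and overlapped neither. NR4A3 fell from 8.02, 5.72 and 7.04 CPM to 4.23, 4.64 and 4.71 CPM (-0.61 ± 0.14, adjusted p = 0.0299). That call was kept in 1 of the 6 fits that left out a library, at adjusted p from 0.0105 to 0.308, and it was lost in the 6 libraries alone (0.13), without the low-count filter (0.0527) and with the replicate block in the shared fit (0.0529). NR4A2 read 3.67, 3.62 and 3.17 CPM against 2.50, 2.29 and 2.59 CPM, without overlap but short of the threshold (-0.50 ± 0.15, adjusted p = 0.229).

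PTGS2, the inducible cyclooxygenase that starts prostaglandin synthesis, was at 19.5, 18.2 and 18.8 CPM at the low dose and 10.5, 11.7 and 11.2 CPM at the high dose (-0.76 ± 0.11, adjusted p = 1.92e-05). PLA2G4A, the phospholipase that frees arachidonic acid for it, went from 33.8, 31.2 and 31.2 CPM to 19.9, 21.6 and 22.6 CPM (-0.58 ± 0.09, adjusted p = 5.9e-05). The high libraries of both genes lay below all low and all vehicle libraries. These 2 genes lie 149 kb apart on chromosome 1 (GRCh38, PTGS2 at 186671791 to 186680427 and PLA2G4A at 186828953 to 186988981). They were the 2 calls among 12 tested genes of the prostaglandin pathway, while the synthase PTGES stood at -0.11 ± 0.09 and the degrading enzyme HPGD at 0.03 ± 0.06. FOS, a subunit of AP-1, was at 3.70, 3.83 and 4.73 CPM at the low dose and 2.30, 2.81 and 2.45 CPM at the high dose (-0.70 ± 0.15, adjusted p = 0.0115), the 1 call among 15 immediate-early factors kept in 3 of 6 fits that left out a library and lost in the 6 libraries alone (adjusted p = 0.117). None of 14 tested genes on a list of further cyclic AMP-responsive genes and CREB cofactors was called. Their median was -0.031.

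The 250 bases before the RefSeq start (GRCh38.p14) are shown for genes that carried these falls, to set the sequence beside the values. TGACG, the core of the cyclic AMP element, is in capitals on either strand (CGTCA on the other one) for NR4A3 (chr9:99821635-99821884, plus strand) and PTGS2 (chr1:186680424-186680673, minus strand). NR4A3 holds 4 matches, beginning 109, 91, 83 and 25 bases before the start, and PTGS2 holds 1 at 58. NR4A1, the largest fall of that family, and PLA2G4A hold 0 in this window. Only the first listed start of each gene was searched (27305 genes, 35116 promoters listed), so a count of 0 does not cover a gene's other starts. For ID4 (chr6:19837120-19837369, plus strand), which has no match to any motif searched, the capitals mark the letters TATAAA, found 29 bases before the start. The PTGS2 sequence holds these letters too, left there in lower case. Their share over all promoters was not counted.
NR4A3: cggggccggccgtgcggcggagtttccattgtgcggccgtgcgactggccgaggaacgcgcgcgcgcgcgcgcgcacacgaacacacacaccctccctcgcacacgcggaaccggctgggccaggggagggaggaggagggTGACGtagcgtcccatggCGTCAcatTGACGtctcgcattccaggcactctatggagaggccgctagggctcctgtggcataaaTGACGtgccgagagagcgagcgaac
PTGS2: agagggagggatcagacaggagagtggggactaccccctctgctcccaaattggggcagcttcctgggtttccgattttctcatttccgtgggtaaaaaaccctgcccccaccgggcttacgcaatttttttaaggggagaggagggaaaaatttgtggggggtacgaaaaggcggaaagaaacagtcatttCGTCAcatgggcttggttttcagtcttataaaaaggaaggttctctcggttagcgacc
ID4: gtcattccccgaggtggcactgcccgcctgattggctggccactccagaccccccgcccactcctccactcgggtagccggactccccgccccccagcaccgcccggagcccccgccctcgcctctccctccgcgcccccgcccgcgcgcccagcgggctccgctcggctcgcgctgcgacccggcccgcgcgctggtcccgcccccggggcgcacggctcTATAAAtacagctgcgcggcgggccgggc
Of the 61 genes, 45 had an entry in the RefSeq table, and 15 of these (33.3%) held TGACG in that window, against 21.7% of 27305 genes. By direction, the share was 31.0% of 29 genes that fell and 37.5% of 16 that rose. GCGTG, the core of the aryl hydrocarbon receptor element, was found in 31.1% against 31.9% of all, CYP1A1 and TIPARP included. GGCGCC, a GC-rich BMP-SMAD element, was found in 20.0% against 16.1%, with 0 matches in ID2, ID3, ID4 and ATOH8. Both strands were searched, the motifs do not contain each other, and a match is a description of letters only.

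The aryl hydrocarbon receptor is a ligand-activated factor that pairs with ARNT and switches on enzymes of foreign-compound metabolism, and TIPARP and AHRR restrain it in turn. CYP1A1, its classical target, was at 0.955, 1.07 and 0.966 CPM at the low dose and 2.26, 2.50 and 2.85 CPM at the high dose (1.35 ± 0.20, adjusted p = 2.85e-05). Those levels rest on 25, 26 and 28 counts at the low dose and on 55, 71 and 78 counts at the high dose. CYP1B1 rose from 57.5, 46.7 and 51.1 CPM to 81.7, 95.5 and 93.5 CPM (0.80 ± 0.10, adjusted p = 3.63e-06). TIPARP rose from 36.0, 28.4 and 31.4 CPM to 50.2, 53.3 and 58.2 CPM (0.75 ± 0.11, adjusted p = 2.85e-05). None of the 3 genes overlapped between the doses, and for each of them vehicle lay near the low dose, as with CYP1B1 at 55.0, 52.7 and 53.9 CPM. These were the 3 calls among 11 tested members. AHRR, the repressor, had a log2 fold of 0.53 ± 0.18 (adjusted p = 0.389) without overlap, at 2.56, 3.00 and 2.31 against 3.53, 4.15 and 3.65 CPM. The receptor AHR itself stood at -0.30 ± 0.12 and NQO1, a target it shares with NRF2, at -0.06 ± 0.11, both short of the threshold. Over the 11 members, the median was 0.04.

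Several genes of glucose use and of glucocorticoid response fell. SLC2A3, a glucose transporter of high affinity, was at 32.8, 33.5 and 31.7 CPM at the low dose and 22.9, 22.6 and 24.0 CPM at the high dose (-0.50 ± 0.07, adjusted p = 1.7e-05). At the medium dose it was at 30.9, 30.5 and 34.2 CPM, overlapping the low dose. PDK4, the kinase that holds pyruvate out of the mitochondrial cycle, went from 23.5, 22.0 and 21.0 CPM to 11.5, 13.8 and 14.1 CPM (-0.75 ± 0.10, adjusted p = 1.7e-05). SGK1, a kinase of salt transport and survival, was at 51.3, 51.3 and 51.7 CPM at the low dose and 39.6, 41.5 and 41.4 CPM at the high dose (-0.33 ± 0.06, adjusted p = 0.000397). HK1, which phosphorylates glucose, fell by 0.34 ± 0.07 and was called in 3 of 6 fits that left out a library. Of 22 hypoxia and glycolysis genes 2 were called (SLC2A3 and HK1), with a median of -0.043. SLC2A1, the more general transporter, stood at 0.04 ± 0.05 and LDHA, the last enzyme of glycolysis, at -0.04 ± 0.07. Of 15 glucocorticoid-induced genes 2 were called (PDK4 and SGK1), while FKBP5 was at 0.16 ± 0.09 and TSC22D3 at 0.15 ± 0.09.

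The fibrinogen chains are made together and joined into one secreted clotting protein, mainly by hepatocytes but also by lung epithelial lines. FGB read 174, 177 and 178 CPM at the low dose and 130.1, 133 and 134 CPM at the high dose (-0.41 ± 0.06, adjusted p = 0.000106). FGG went from 86.3, 96.8 and 97.0 CPM to 65.6, 67.7 and 66.2 CPM (-0.49 ± 0.08, adjusted p = 0.000654), and FGA from 153, 165 and 162 CPM to 119.8, 122 and 125 CPM (-0.39 ± 0.07, adjusted p = 0.00143). All 3 chains fell by a similar size and were called in each of the 6 fits that left out a library. At the medium dose FGA was at 158, 157 and 156 CPM, within its low-dose range, and FGB at 167, 171 and 171 CPM, just below its own. The genes are neighbours on chromosome 4, FGB at 154562956 to 154571086 (plus strand), FGA at 154583126 to 154590766 and FGG at 154604134 to 154612967 (both minus strand). No other member of the list of 12 tested clotting, complement and acute-phase genes was called. C3, the central complement protein, stood at 0.11 ± 0.14.

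H19, a long non-coding RNA of an imprinted locus next to IGF2 (chromosome 11, 1995176 to 2001470), was at 97.4, 108 and 103 CPM at the low dose and 55.1, 55.5 and 60.6 CPM at the high dose (-0.85 ± 0.11, adjusted p = 1.87e-06). Vehicle was at 86.3, 83.0 and 93.7 CPM, below each low library and above each high one. The other 16 tested genes of the insulin-like growth factor axis were not called, IGF2 itself at 0.05 ± 0.18. Other falls touched genes of Wnt feedback. AXIN2, a scaffold that Wnt induces and that limits it, was at 3.74, 3.78 and 3.97 CPM at the low dose and 1.40, 2.07 and 2.48 CPM at the high dose (-0.94 ± 0.18, adjusted p = 0.00259). That call was lost without high replicate 1, its lowest library (-0.75, adjusted p = 0.0902) and in the fits of 6 libraries (0.0782, or 0.203 with the block) and of 9 (0.109). RNF43, which removes Wnt receptors, had -0.72 ± 0.17 (adjusted p = 0.0298) and was lost in each of the 6 fits that left out a library (adjusted p from 0.0712 to 0.159). These were 2 of 14 tested Wnt and Notch genes, beside DKK1 at -0.25 ± 0.10 and ZNRF3 at -0.18 ± 0.11. Among the 15 largest falls were also S100P, SPDEF, a factor of secretory cells, ACOX2 and the pseudogene ZDHHC8BP, with log2 folds from -1.24 ± 0.21 to -0.70 ± 0.16. ZDHHC8BP can share reads with its parent gene, so its value is uncertain. S100P and ACOX2 were called in 1 of 6 fits that left out a library, SPDEF in 3 and ZDHHC8BP in 6, and ACOX2 was lost in the 6 libraries alone (0.118). Beyond the rule for named genes, RASL10B had a fold of -1.55 ± 0.36 on 12, 21 and 17 counts at the low dose and 7, 3 and 7 at the high dose.

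Rises outside the aryl hydrocarbon receptor list touched genes of cell adhesion and of TGF-beta and YAP response. AXL, a receptor kinase, rose by a log2 fold of 0.20 ± 0.05 (adjusted p = 0.0286), which was lost in each of the 6 fits that left out a library (0.057 to 0.181). Of 19 tested TGF-beta and YAP targets 15 were above 0, with a median of 0.10. CCN1 stood at 0.26 ± 0.07 and CCN2 at 0.09 ± 0.10, neither called. CDH4, a cadherin, rose from 27.2, 25.1 and 26.2 CPM to 37.2, 38.6 and 36.6 CPM (0.52 ± 0.07, adjusted p = 1.94e-05) and was the 1 call among 11 cadherins and catenins. CDH1 was at -0.15 ± 0.13 and CDH2 at 0.20 ± 0.11. On the basement membrane list 17 of 18 tested genes were above 0, with a median of 0.135. Its summed level was 3806, 3984 and 3836 CPM at the high dose and 3947, 3564 and 3551 CPM at the low dose, so that low replicate 1 lay within the high range.

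Smaller rises among the named genes were those of OTULINL (0.49 ± 0.10), FHL1 (0.40 ± 0.08), the Wnt5a receptor ROR1 (0.39 ± 0.07), AFAP1L2 (0.39 ± 0.08), TMEM156 (0.38 ± 0.08), the NF-kB target BIRC3 (0.35 ± 0.09), the netrin NTN4 (0.30 ± 0.06), the matrix protein EFEMP1 (0.29 ± 0.07) and INSIG1, a brake on cholesterol synthesis (0.24 ± 0.05). NTN4 was called in each of the 6 fits that left out a library, ROR1 and AFAP1L2 in 5, OTULINL in 4, FHL1, TMEM156 and EFEMP1 in 2, BIRC3 in 1 and INSIG1 in 0. In the 6 libraries alone OTULINL (adjusted p = 0.203), FHL1 (0.156), TMEM156 (0.149), BIRC3 (0.117), NTN4 (0.0557), EFEMP1 (0.379) and INSIG1 (0.228) lost their calls. BIRC3 was 1 of 23 tested NF-kB genes and INSIG1 1 of 24 cholesterol genes, where HMGCS1 stood at 0.17 ± 0.07. CCL2, a chemokine, had a fold of 0.53 ± 0.14 short of the threshold (adjusted p = 0.0957).

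In all, 29 genes of the 38 lists were called. No member was called on the lists of NRF2 targets (24 tested, median -0.047), ATF4-CHOP stress genes (25, 0.081), endoplasmic reticulum folding (20, -0.044), heat shock proteins (14, -0.067), p53 targets (22, 0.054), DNA replication (26, -0.033), mitosis (22, -0.016) or interferon-stimulated genes (16, 0.060). A p that misses the threshold does not show that these genes were equal at the 2 doses. In simulated counts, the test found 28 of 80 genes changed 1.25-fold, 48 of 60 changed 1.5-fold and 58 of 60 changed 2-fold, with 6 false calls. The simulated counts were drawn independently, without the differences in length balance seen between the real libraries. Changes were put only into genes above a minimum mean level, so these rates do not cover members at low CPM.

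**Figure D3:**
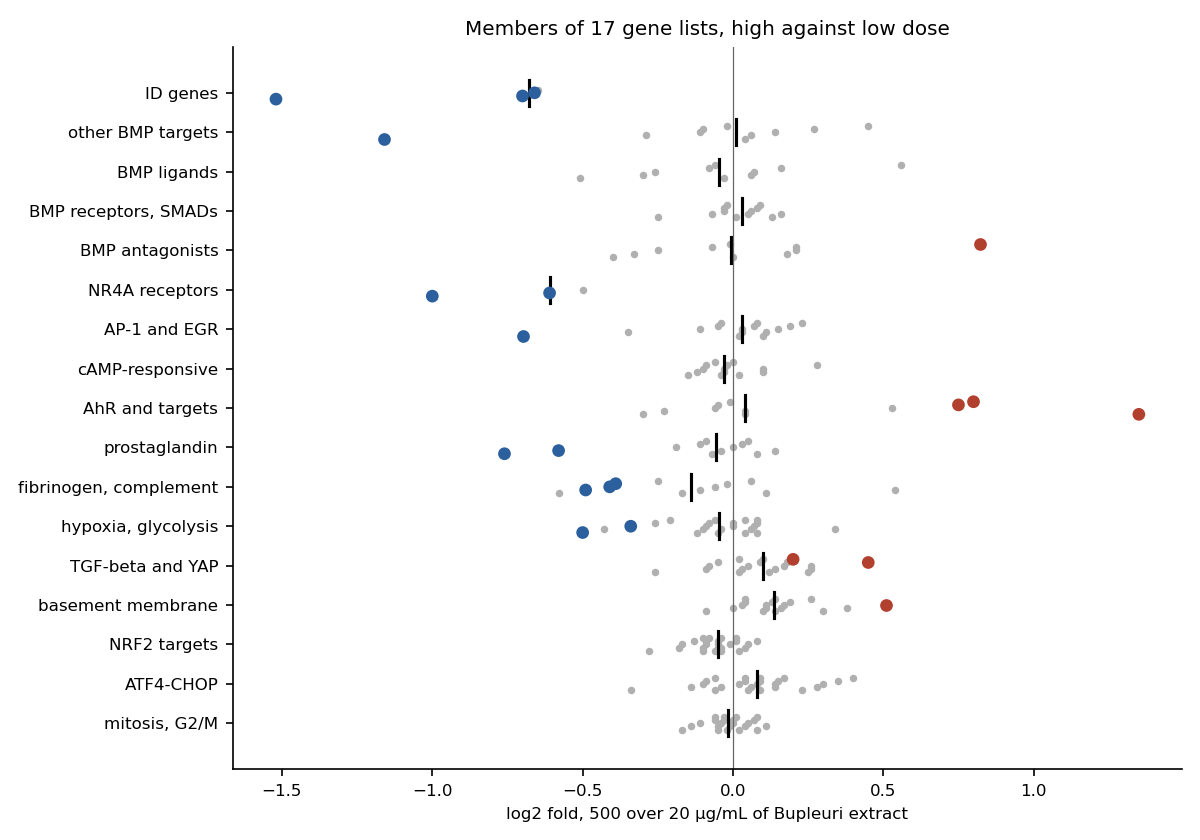
Log2 fold of the high over the low dose (horizontal axis) for each tested member of 17 gene lists (vertical axis), with called genes in red (higher) or blue (lower), the others in grey and the list's median as a black bar. The medians of the ID and NR4A lists, at -0.68 and -0.61, lie left of those of the other 15 lists, which span -0.14 to 0.135.

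Doses were next compared in steps. Between medium and high dose, 19 genes were called (percent called 0.110), 7 higher (0.0405) and 12 lower (0.0695). Falls included those of ID4 (-1.18 ± 0.13), ATOH8 (-0.79 ± 0.12), NR4A1 (-0.68 ± 0.08), H19 (-0.50 ± 0.11) and PTGS2 (-0.49 ± 0.11). On the other side stood CYP1A1 (1.25 ± 0.20), GREM1 (0.68 ± 0.12), TIPARP (0.53 ± 0.11), OTULINL (0.49 ± 0.10) and CYP1B1 (0.48 ± 0.10). Deviations from the group mean correlated at 0.38, 0.31 and 0.16 between same-numbered high and medium libraries. Between same-numbered medium and low libraries they correlated at -0.54, -0.35 and -0.04, so it is not settled that the numbers pair libraries. With the replicate block in a fit of the 6 high and medium libraries alone 55 genes were called, against 4 without the block. Between low and medium dose no gene was called (percent called 0), with 309 genes at an unadjusted p under 0.05 by edgeR and 0 calls by DESeq2, which had 231 genes under that level. The comparisons share libraries, so their values are given side by side only. The medium mean lay between the low and high means in all 61 genes, which were chosen for a difference between those 2 doses, so that nothing is read from this order. In the median gene the medium dose had covered 30% of the log2 distance, 24.2% for rises and 31.6% for falls, although it lies midway between the doses on a log scale. Members differed in this: CYP1A1 was at 1.07, 1.02 and 1.09 CPM at the medium dose, still at its low-dose level, whereas ACOX2 at 3.78, 3.25 and 2.92 CPM was close to its high-dose level of 3.41, 3.31 and 2.45 CPM. Vehicle libraries of ACOX2, at 3.58, 3.62 and 3.93 CPM, overlapped the medium dose too, so its low dose stood apart from the other groups.

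**Figure D4:**
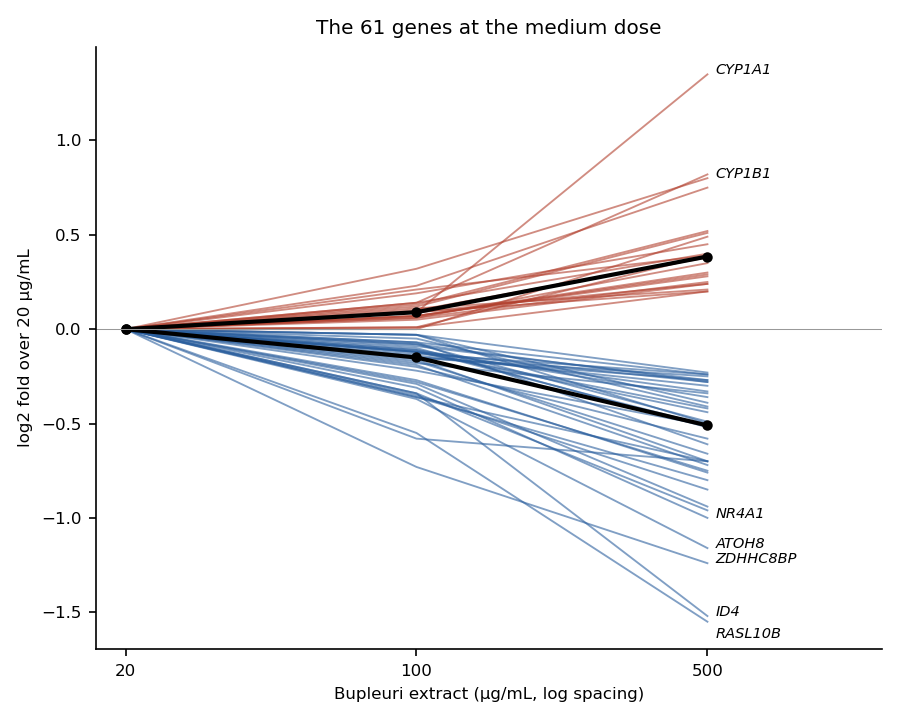
Log2 fold over the low dose (vertical axis) at 20, 100 and 500 µg/mL (horizontal axis, log spacing) for the 61 called genes, red for rises and blue for falls, with the median of each direction in black. The genes were chosen for their difference between 20 and 500 µg/mL, which favours the ends of the lines lying there; in the median gene the medium dose stands at 24.2% of the distance for rises and 31.6% for falls.

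Against the vehicle libraries, the low dose lay closer than the high dose. The vehicle mean was nearer to the low than to the high mean in 58 of the 61 genes, the exceptions being SPDEF, ACOX2 and FOS. Between low dose and vehicle edgeR called 0 of 17268 genes (percent called 0), with 1366 at an unadjusted p under 0.05. Between high dose and vehicle 123 genes were called (percent called 0.712), and all 61 genes kept the direction they had against the low dose, with the high libraries shared by both comparisons.

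Cimicifugae and Citri share no library with Bupleuri, so their high against low dose comparisons could be set beside it. Cimicifugae gave 232 called genes (percent called 1.34), 108 higher (0.625) and 124 lower (0.718). It shared 34 genes with Bupleuri, 55.7% of the Bupleuri calls and 14.7% of its own, 12 higher and 22 lower in both. The sign was the same in 60 of the 61 genes, RASL10B being the exception, and in Citri it was the same in 59. The share of the same sign over all tested genes was not computed. ID4 went from 7.80, 10.5 and 10.5 CPM to 4.05, 4.43 and 3.81 CPM in Cimicifugae (-1.23 ± 0.13) and NR4A1 from 35.5, 43.4 and 37.8 CPM to 15.9, 15.5 and 13.7 CPM (-1.37 ± 0.08). CYP1A1 rose there by a log2 fold of 2.05 ± 0.18. Citri gave 4 called genes (percent called 0.0232), 2 higher (0.0116) and 2 lower (0.0116), all 4 also called in Bupleuri: NR4A1 (-0.44 ± 0.07), FGA (-0.40 ± 0.07), CYP1B1 (0.55 ± 0.10) and INSIG1 (0.40 ± 0.05). The fold was smaller in size than in Bupleuri for 59 of the 61 genes in Citri and for 41 in Cimicifugae. The 61 genes were chosen for their difference in Bupleuri, which favours larger folds there, so nothing is read from these 2 counts.

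The difference between herbs was tested as an interaction. Against Cimicifugae, 1 gene differed (percent called 0.00579), and 0 of the 61 did. DESeq2 called 10 genes, and edgeR put 541 under an unadjusted p of 0.05. IGFBP3, a binding protein of insulin-like growth factors, was at 171, 165 and 186 CPM at the low and 199, 183 and 194 CPM at the high dose of Bupleuri, where the groups overlapped (0.14 ± 0.05). In Cimicifugae it fell from 167, 166 and 169 CPM to 123, 129.8 and 129.8 CPM (-0.39 ± 0.05). The difference of the log2 folds was 0.53 ± 0.07 (adjusted p = 5.63e-05), and a fit of those 12 libraries alone gave the same 0.53 at an adjusted p of 0.108. Of the 22 rises, 10 were not called in Cimicifugae, among them CAV1, TPM1 and AXL, each with a fold there of 0.02, but none of these differences passed the test. A miss does not show that the herbs were alike. In the simulated counts this test found 10 of 80 genes changed 1.25-fold and 34 of 60 changed 1.5-fold, with 5 false calls.

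Against Citri, 3 genes differed (percent called 0.0174), all among the 61. ID4 was at 10.6, 8.70 and 10.2 CPM at the low and 7.74, 9.05 and 8.70 CPM at the high dose of Citri (-0.21 ± 0.12), where the groups overlapped, and its fold differed from that in Bupleuri by -1.30 ± 0.18 (adjusted p = 8.35e-05). ATOH8 was at 10.8, 11.3 and 12.8 CPM and 8.89, 10.0 and 10.9 CPM (-0.22 ± 0.11), a difference of -0.93 ± 0.15 (adjusted p = 0.00287). NR4A1 fell in Citri too, from 36.6, 37.0 and 40.1 CPM to 27.2, 28.1 and 28.5 CPM, and the difference of -0.55 ± 0.10 passed the threshold (adjusted p = 0.0231) but was lost in 8 of the 12 fits that left out a library, at adjusted p up to 0.191. For CYP1B1 the difference was 0.25 ± 0.14 and for CYP1A1 0.44 ± 0.28, neither past the threshold. In the simulated counts the test against Citri found 2 of 80 genes changed 1.25-fold and 37 of 60 changed 1.5-fold, with 9 false calls.

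**Figure D5:**
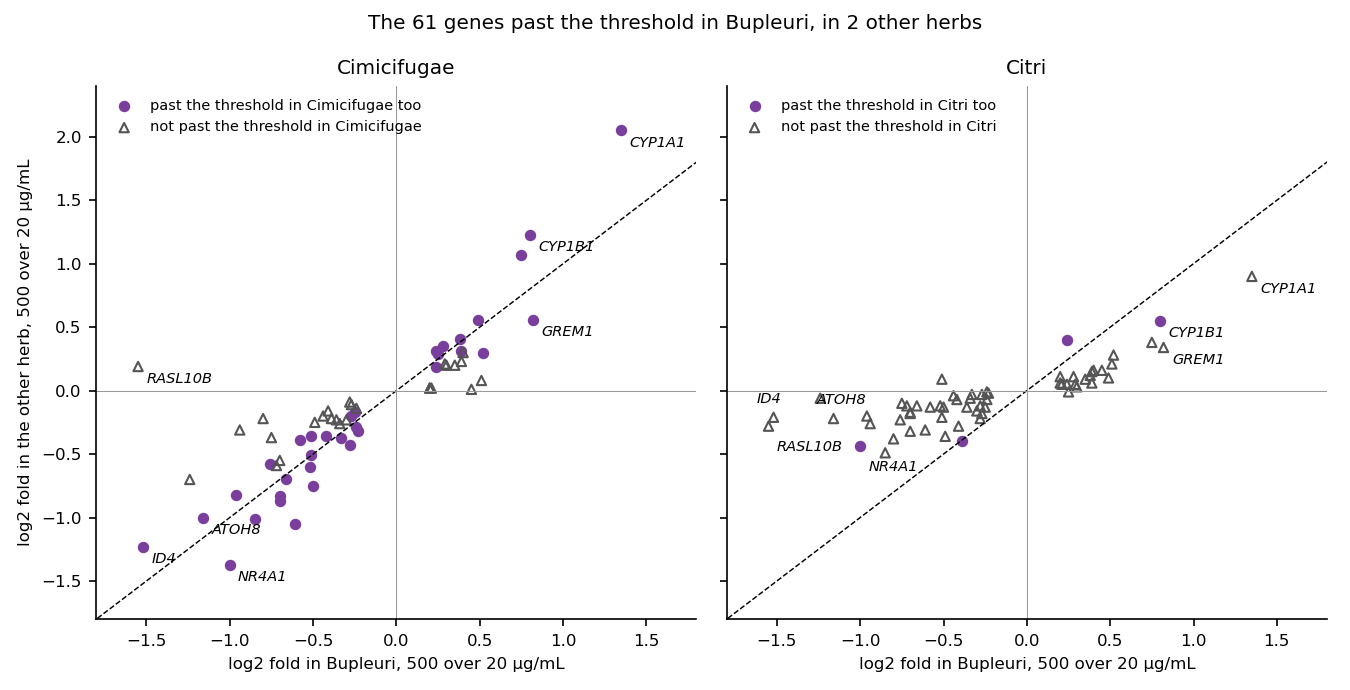
Log2 fold of the high over the low dose of Cimicifugae (left) and Citri (right) on the vertical axes against that of Bupleuri (horizontal axes) for the 61 genes called in Bupleuri, with filled circles for genes called in the other herb too (34 and 4), open triangles for the rest and a dashed line of equal folds. Points for Cimicifugae lie along that line and those for Citri mostly nearer to 0, with a smaller size than in Bupleuri for 59 of 61 genes. The genes were chosen for their difference in Bupleuri, which favours larger folds on the horizontal axes.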

How the data were processed

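The values the authors deposited are expected counts per gene; per the submitters' processing notes RSEM 1.3.3 and STAR 2.7.3a were used with GRCh38, beside Trim Galore 0.6.5 and FastQC 0.11.9. Of the values, 9.37% were not whole and were rounded. The annotation release and strand setting are not given in the sources used here, so values of antisense, overlapping or near-identical genes are uncertain. Coordinates and symbols come from GENCODE 29, which may differ from the release used. Of 269 sample columns, 209 matched no sample and were not used.

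One edgeR 4.0.16 quasi-likelihood fit (R 4.3.3, TMM, filterByExpr) held 57 libraries in 19 groups, so the groups share 1 estimate of the spread (38 residual degrees of freedom), and p-values were adjusted over 17268 genes by the Benjamini-Hochberg method. Called means an adjusted p under 0.05; folds are log2 with SE. Named genes are the 15 called genes with the largest log2 fold in each direction (mean of at least 1 CPM in the higher group, no overlap between groups) and the called members of the gene lists; up to 5 in each direction were named in the other comparisons. Uncalled members given as examples outside the BMP, NR4A, aryl hydrocarbon receptor, H19 and prostaglandin lists were chosen after their values were seen. The members, the lists and the tests were chosen with earlier results of these data known. Deviations of same-numbered high and medium libraries correlated at 0.38, 0.31 and 0.16, those of medium and low at -0.54, -0.35 and -0.04. Whether the numbers pair libraries is not settled, and the labels do not say what a number marks. The test was checked on simulated counts. Alternatives were other scaling (RLE), no filter, a robust fit, removal of mitochondrial genes, covariates, fewer libraries, leaving out each library, and DESeq2 1.42.0. Promoter letters come from RefSeq (GRCh38.p14). Results for some genes are not reported here.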

Additional observations from a re-analysis of the deposited data

Results flagged for a closer look

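The high against low dose effect differed between Bupleuri and another herb, by the test of the difference itself, for 4 genes. IGFBP3 differed from Cimicifugae by a log2 fold of 0.53. Against Citri, ID4 differed by -1.30, ATOH8 by -0.93 and NR4A1 by -0.55. The difference of NR4A1 was lost without the low-count filter (adjusted p = 0.193, edgeR) and with the replicate block (adjusted p = 0.0537).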

How the results depend on the processing

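The 61 calls (22 higher, 39 lower) became 33 (9 and 24) without the low-count filter, 265 (125 and 140) with the length balance as covariate, 112 (45 and 67) without 1 Citri medium library, and 120 (53 and 67) with DESeq2, which left the adjusted p of some genes missing. A fit of the 6 libraries alone gave 13 higher and 28 lower, and with the replicate block 15 (5 and 10); a fit of the 9 Bupleuri libraries, added after seeing the data, gave 39 (10 and 29). The block in the shared fit gave 79. Leaving out 1 library gave 29 to 54 changed, 10 to 18 higher and 19 to 36 lower. Deviations of same-numbered high and low libraries correlated at r -0.35, -0.16 and 0.03, which does not settle whether the numbers pair them. High against medium, 19 calls became 84 with the length covariate, 32 without the Citri library, 4 in 6 libraries, 55 there with the replicate block, 9 in 9 libraries, and 8 to 12 leaving out 1. Medium against low, the length covariate gave 1. The difference from Cimicifugae, 1 gene, became 2 with RLE, 3 without mitochondrial genes, 4 with the block, 24 with the length covariate, 8 without the Citri library, 0 in 12 libraries with or without the block, 10 with DESeq2, and 1 to 4 leaving out 1 (4 without Cimicifugae low replicate 2). That from Citri, 3 genes, became 13 with the length covariate, 7 in 12 libraries, 0 there with the block, 2 without the filter and with the block in the shared fit, and 2 to 4 leaving out 1. No direction reversed under these settings; the cause was not tested. Of 40 named genes, 11 lost their call without the filter, 12 in the 6 libraries, 29 there with the replicate block, 13 in the 9 libraries, 1 with RLE and 1 with the block in the shared fit; over the 6 fits that left out a library, 74 pairs of gene and fit lost the call and 166 kept it.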
